A study of Sus scrofa with 9 samples.

Results

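Genes that were close to silent in porcine aortic valvular interstitial cells (PVICs) without basic fibroblast growth factor (bFGF), and were read in every library with it, are described here. Members were chosen by their measured level in CPM, the read count scaled to the size of each library with TMM factors: below 1 CPM in all 6 libraries without bFGF, and at 2 CPM or more in all 3 libraries with it. The rule left 35 members among 13662 genes with enough counts for testing (0.256%), out of 19535 genes in the table. PVICs are the fibroblast-like cells inside the aortic valve leaflet, and these were primary wild-type cells from pigs aged 4 to 5 months, used after a few passages and with the valve endothelium scraped off beforehand. Control (NC) cells were kept in DMEM, OIM cells in osteogenic induced medium with 2 mmol/L phosphate, 50 µg/mL ascorbic acid and insulin, and bFGF cells in the same OIM with 50 ng/mL bFGF, so that bFGF was never given without OIM. The labels give 3 days of culture and the methods of the study a shorter time, and each group had 3 libraries. Neither source says whether libraries of a group came from separate animals or cultures, so p-values measure only the spread between these libraries, which may be technical. Because the rule used the bFGF libraries, the levels of the members in bFGF against OIM or control are a description and carry no test.

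bFGF, the product of FGF2, binds FGF receptors together with heparan sulfate and signals through RAS and ERK, with Sprouty, SPRED and DUSP proteins as negative feedback and ETS and AP-1 proteins among the transcription factors it reaches. In valve and other mesenchymal cells it is known as a mitogen, and valvular interstitial cells are the cells that take on myofibroblast or bone-like features in calcific valve disease. The members fall by role into secreted ligands, membrane receptors and adhesion proteins, a transporter, nuclear factors, and enzymes and signalling proteins inside the cell.

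The bFGF libraries held 46773376 to 48270827 gene counts and the other libraries 57075793 to 67371523, so every bFGF library was the shallower. The 35 members together took 12.7 to 17.4 CPM in the 6 control and OIM libraries and 187 to 206 CPM in the 3 bFGF libraries. In read counts this was 726 to 1134 against 9754 to 10704 per library. Single members had at most 65 counts in any control or OIM library and at least 105 in any bFGF library. Of the 210 member values without bFGF, 2 were at 0 counts, both in control. By the rule, every bFGF library of a member lay above every other library, while control and OIM libraries overlapped for 30 of the 35 and did not for 5, where 28.8% of all genes tested did not. That share was not taken for genes as low as the members. Members were 2.82 to 147 times higher in mean CPM with bFGF than in OIM (median 9.90) and 3.50 to 105 times higher than in control (median 9.95). The lowest bFGF library exceeded the highest other library by 2.17 to 55.2 times, and by 10 times or more for 10 of the 35. Over all genes tested, 36.2% differed between bFGF and OIM at an edgeR adjusted p of at most 0.05 and a log2 fold change of at least 0.5 in size (17.7% higher with bFGF, 18.4% lower), and 39% between bFGF and control (18.9% higher, 20% lower), and a gene is said to be called, higher or lower below by these limits. These are RNA levels in bulk cultures, in which more cells of a kind and more RNA per cell cannot be told apart.

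**Figure D1:**
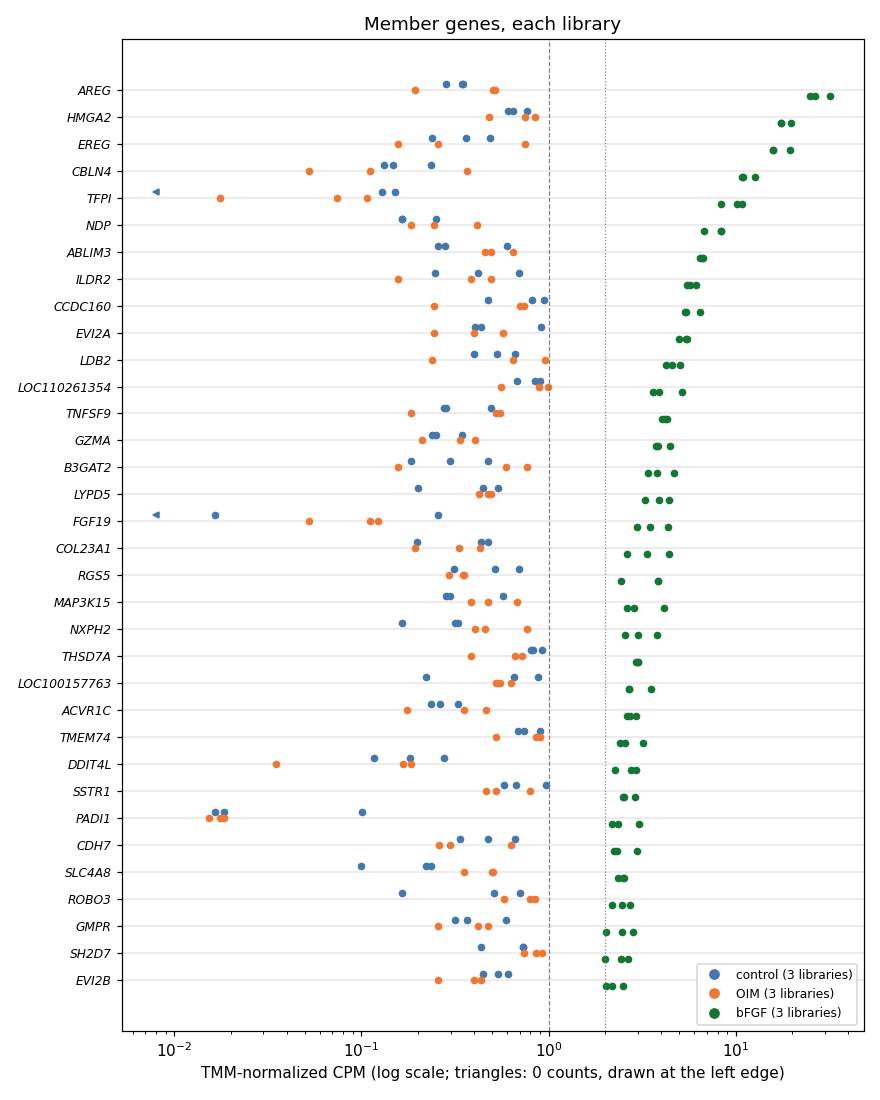
TMM-normalized CPM (log scale) of 34 members in each of 9 libraries, ordered by mean level with bFGF; dots are single libraries, triangles are values of 0, and the broken and dotted lines mark the limits of 1 and 2 CPM. AREG, HMGA2 and EREG stand highest with bFGF, and TFPI and PADI1 lie lowest without it.

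Growth factor genes were among the most abundant members. AREG encodes amphiregulin and EREG encodes epiregulin, both EGF-like ligands that are made as membrane precursors, shed by proteases and bound by EGFR. AREG (chromosome 8, 70417935 to 70428106, plus strand) was read at 0.349, 0.346 and 0.285 CPM in control, 0.517, 0.507 and 0.193 CPM in OIM and 24.8, 26.4 and 31.8 CPM in bFGF. Its bFGF libraries lay at least 48.0 times above every other library, and its mean was 68.3 times that in OIM and 84.7 times that in control. EREG (chromosome 8, 70351316 to 70372530, plus strand) was read at 0.239, 0.363 and 0.486 CPM in control, 0.258, 0.752 and 0.158 CPM in OIM and 15.8, 15.9 and 19.5 CPM in bFGF. The control and OIM values of EREG overlapped, with OIM replicate 2 highest among them, and the bFGF mean was 43.8 times the OIM mean. AREG also had the highest level per length of all members, 22.9 CPM per kilobase of exon, above 81.7% of the genes tested, whereas EREG, with a longer transcript, had 3.87.

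Both genes lie on the same strand 45.4 kb apart in the cluster of EGF-like genes. Of the other ligands of EGFR in this cluster or elsewhere, a list put together after the data had been seen, HBEGF and BTC were higher with bFGF and EPGN was lower. HBEGF, heparin-binding EGF-like growth factor, had 8.14 ± 0.429 CPM (SD, n = 3) with bFGF against 3.56 ± 0.452 in OIM (log2 fold change 1.19 ± 0.13 SE, edgeR adjusted p = 1.03e-07). BTC, betacellulin, lies 228 kb beyond AREG and had a log2 fold change of 1.49 ± 0.13 (edgeR adjusted p = 5.12e-09). EPGN, epigen, lies 50.1 kb before EREG at 0.259 CPM in OIM, and its log2 fold change was -2.31 ± 0.77 (edgeR adjusted p = 0.0125), a call that was lost without OIM replicate 3 (-1.65, edgeR adjusted p = 0.109) or bFGF replicate 1 (-1.92, edgeR adjusted p = 0.0628). The receptor EGFR had 152 ± 4.89 CPM with bFGF and 170 ± 6.80 in OIM, a difference of -0.16 on the log2 scale that did not reach the fold limit and changed sign, to 0.058, with scaling by library totals. Among its partners, ERBB2 (-0.58; -0.36 and no longer called with library totals) and ERBB4 (-1.09) were lower with bFGF, and ERBB3 was not called.

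**Figure D2:**
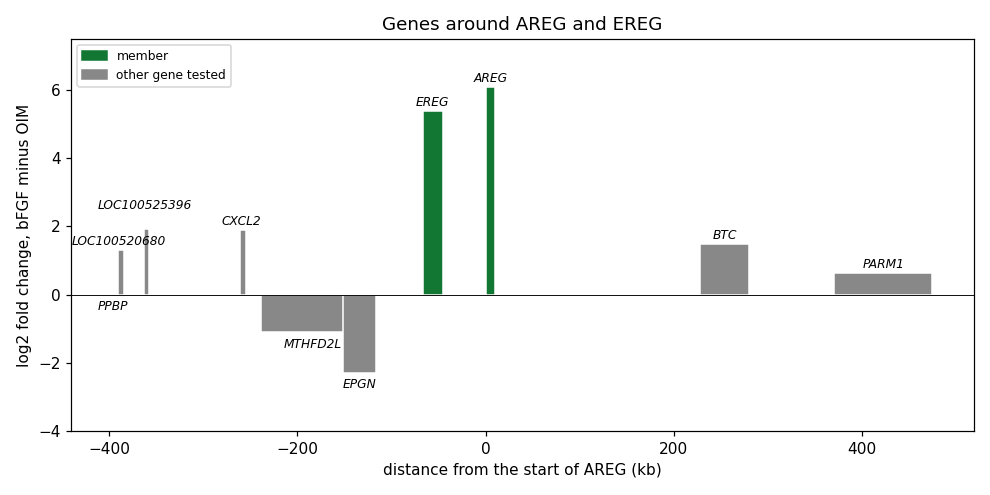
Log2 fold change between bFGF and OIM (y axis) of the genes tested around AREG, by distance in kb from its start (x axis). AREG and EREG, at 6.08 and 5.39, stand above all other genes drawn, of which BTC, CXCL2 and a pair of genes known by LOC symbols lie from 1.29 to 1.91, and MTHFD2L and EPGN below 0.

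The promoter windows of the members ran from 250 bases before to 50 after the annotated start in Sscrofa11.1. They were searched on both strands for motifs of factors that growth factor signalling is known to reach. The TATA box and GC box, which are general promoter elements, were searched as well. Shown are the CRE and TATA box of AREG and the TATA box of EREG, as both ligand genes were among the 3 most abundant members. The sites of CCDC160 are shown because it held the AP-1 motif. AREG also held an ETS core 16 bases before its start and GC boxes, which are not shown. Each 30-base stretch is written along the strand of the gene, with the motif in capitals.
AREG CRE (chr8:70417845-70417874): cgcggcgaccgTGACGTCAcgggcgatgcc
AREG TATA box (chr8:70417879-70417908): tcccgcccggccTATAAAgccactggtgcg
EREG TATA box (chr8:70351272-70351301): cccaaaacgactTATAAAtgtcgccgcgcg
CCDC160 AP-1 (chrX:110159625-110159654): gggtggctttgTGAGTCAcccagaccctcc
CCDC160 AP-1 (chrX:110159699-110159728): ccttcccacccTGACTCAgctctcccgttc
The cAMP response element (CRE, TGACGTCA) was found in the window of AREG, 79 bases before its start, and in no other member. This is 1 of 35 windows (2.86%), the same share as in all tested genes with a window (2.90%). The TATA box (TATAAA) stood 44 bases before the start of AREG and 32 before that of EREG, and 4 of 35 windows held it (11.4%, against 7.99% of the 13642 tested genes with a window in the annotation). The AP-1 motif (TGANTCA) occurred in 1 of 35 members (2.86%, against 4.87%), CCDC160, which held it at 2 places. The ETS core (CCGGAA) occurred in 4 (11.4% against 23.0%), AREG among them, the E-box (CACGTG) in 3 (8.57% against 9.16%), and the GC box (GGGCGG) in 21 (60.0% against 61.0%). The median GC content was 60.3% in the member windows and 61.7% in all. The letters of the CRE and AP-1 motifs exclude each other, so no site was counted for both. These shares describe letters in short windows, not binding.

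Other secreted proteins made up a group of 4. FGF19, a hormone-like FGF that controls bile acid synthesis through FGFR4 and the co-receptor KLB, was read at 0.257, 0.0165 and 0 CPM in control, 0.111, 0.123 and 0.0525 CPM in OIM and 2.96, 3.50 and 4.35 CPM in bFGF. The control values of FGF19 were spread from 0 to 0.257 CPM, and its bFGF mean was 37.8 times the OIM mean. KLB itself was at 0.178 CPM with bFGF and 0.0964 in OIM and was not called. NDP encodes norrin, a ligand that activates WNT signalling through FZD4, LRP5 or LRP6 and TSPAN12, and it was read at 0.165, 0.165 and 0.251 CPM in control, 0.184, 0.414 and 0.245 CPM in OIM and 8.35, 6.77 and 8.35 CPM in bFGF. Of its 4 receptor genes, a list chosen after the data had been seen, TSPAN12 was higher with bFGF (115 ± 1.12 against 31.1 ± 3.14 CPM, log2 fold change 1.89 ± 0.06, edgeR adjusted p = 4.13e-16), LRP6 was lower (-0.60; -0.38 and no longer called with library totals), and FZD4 and LRP5 were not called. CBLN4, a cerebellin that organizes synapses, was read at 0.147, 0.132 and 0.234 CPM in control, 0.111, 0.368 and 0.0525 CPM in OIM and 12.6, 10.9 and 11.0 CPM in bFGF, and OIM replicate 2 was again the highest of the libraries without bFGF. NXPH2, a neurexophilin that binds neurexins, was read at 0.165, 0.330 and 0.318 CPM in control, 0.406, 0.768 and 0.455 CPM in OIM and 3.02, 3.79 and 2.56 CPM in bFGF. All 3 OIM libraries of NXPH2 lay above all 3 control libraries, and its bFGF mean was 5.75 times the OIM mean but 11.5 times the control mean.

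TFPI, tissue factor pathway inhibitor, blocks the start of coagulation at the complex of tissue factor and factor VIIa. It was read at 0.128, 0 and 0.151 CPM in control, 0.0738, 0.107 and 0.0175 CPM in OIM and 10.8, 8.32 and 10.1 CPM in bFGF. One control library had 0 counts. The 3 OIM libraries held 12 counts together and the bFGF libraries 1535, and the bFGF mean was 147 times the OIM mean and 105 times the control mean, with control and OIM overlapping. The other genes of coagulation and plasminogen control at the cell surface, 10 non-members tested, were higher in 4 and lower in 3, beside 17.7% of all tested genes called higher with bFGF than in OIM and 18.4% called lower. F3, which encodes tissue factor, the target of TFPI, was at 2.02 ± 0.566 CPM with bFGF and 53.1 ± 15.3 in OIM (log2 fold change -4.71 ± 0.19, edgeR adjusted p = 2.90e-14). TFPI2, a protease inhibitor of the matrix, was lower (-0.73). PLAT, tissue plasminogen activator (2.37), PLAUR, the urokinase receptor (1.60), and the thrombin and protein C receptors THBD (0.79) and PROCR (1.79) were higher. SERPINC1, SERPINE2 and PLAU were not called.

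HMGA2 (chromosome 5, 30188521 to 30329635, plus strand), an architectural chromatin protein of embryonic and growing cells, was second in level. It was read at 0.642, 0.610 and 0.770 CPM in control, 0.480, 0.844 and 0.753 CPM in OIM and 17.5, 17.5 and 19.7 CPM in bFGF. Its bFGF libraries differed from each other by little (CV 7.05%), and the mean was 26.4 times that in OIM. Its paralog HMGA1 missed the rule by its level without bFGF and rose from 12.3 ± 5.62 CPM in OIM to 496 ± 4.68 with bFGF (log2 fold change 5.32 ± 0.17, edgeR adjusted p = 5.01e-16). HMGA1 was at 10.1, 18.6 and 8.0 CPM in OIM and at 498, 491 and 500 with bFGF, so that OIM replicate 2 stood apart while the bFGF libraries were close together. The non-coding gene LOC106507220 lies across HMGA2 on the opposite strand. The one of its transcripts that runs from 30221597 to 30250057 on chromosome 5 and shares no exon base with HMGA2 was at 0.784, 1.10 and 1.24 CPM in control, 1.17, 1.46 and 1.79 in OIM and 0.413, 0.204 and 0.113 with bFGF, from estimated counts. It was lower with bFGF (log2 fold change -2.57 ± 0.45, edgeR adjusted p = 0.00819 over 2253 transcripts), where 3.2% of the non-coding transcripts tested were called higher and 6.08% lower. Another transcript of the same gene, which shares 87 exon bases with HMGA2, was not called (-0.25, edgeR adjusted p = 0.842).

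The other nuclear members were LDB2, a cofactor that joins LIM-domain transcription factors, and LOC100157763, annotated as a histone H2A type 1. LDB2 was read at 0.532, 0.660 and 0.402 CPM in control, 0.240, 0.952 and 0.648 CPM in OIM and 5.02, 4.23 and 4.56 CPM in bFGF. Its OIM values spread from 0.240 to 0.952 CPM, with replicate 2 near the limit of the rule, and spanned all its control values. LOC100157763 (chromosome 7, 21582735 to 21583552) was read at 0.220, 0.874 and 0.653 CPM in control, 0.627, 0.553 and 0.525 CPM in OIM and 2.7, 3.52 and 2.69 CPM in bFGF. Histone genes of one class are near copies, so reads may be shared between them. All 12 tested neighbours within 100 kb of it, of which 11 are annotated as histone genes, were also higher with bFGF, by 2.02 to 2.83 on the log2 scale. These neighbours had mean levels of 1.14 to 28.8 CPM in OIM, all above the 0.568 CPM of LOC100157763.

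Receptors, adhesion proteins and other membrane proteins were the largest group. TNFSF9, the ligand of the T cell receptor 4-1BB, was read at 0.275, 0.495 and 0.285 CPM in control, 0.184, 0.553 and 0.525 CPM in OIM and 4.27, 4.02 and 4.21 CPM in bFGF, and its 3 bFGF libraries differed by a CV of 3.18%. ILDR2, an immunoglobulin-like protein of cell contacts, was read at 0.697, 0.247 and 0.419 CPM in control, 0.387, 0.491 and 0.158 CPM in OIM and 5.71, 5.52 and 6.16 CPM in bFGF. LYPD5, a small protein of the Ly6 family, was read at 0.202, 0.445 and 0.536 CPM in control, 0.424, 0.476 and 0.490 CPM in OIM and 3.28, 3.90 and 4.42 CPM in bFGF. In each of the 3 the bFGF libraries stood clear of the rest by 6.13 to 7.91 times, while control and OIM overlapped. ACVR1C, also known as ALK7, a type I receptor for activins and nodal, was read at 0.330, 0.264 and 0.234 CPM in control, 0.461, 0.353 and 0.175 CPM in OIM and 2.61, 2.71 and 2.92 CPM in bFGF. THSD7A, a thrombospondin-domain protein of podocytes and endothelium, was read at 0.826, 0.924 and 0.804 CPM in control, 0.387, 0.660 and 0.718 CPM in OIM and 3.00, 3.00 and 2.94 CPM in bFGF. The bFGF values of THSD7A were the closest together of any member (CV 1.10%), and its 3 control libraries lay above the 3 OIM libraries. COL23A1, a collagen anchored in the membrane, was read at 0.477, 0.198 and 0.435 CPM in control, 0.332, 0.430 and 0.193 CPM in OIM and 3.34, 4.42 and 2.62 CPM in bFGF and had the widest spread with bFGF (CV 26.3%). The other membrane members were among the least abundant. SSTR1, a receptor of somatostatin, averaged 2.64 ± 0.227 CPM with bFGF, 0.593 ± 0.176 in OIM and 0.740 ± 0.207 in control (SD, n = 3). ROBO3, a receptor of axon guidance, averaged 2.45 ± 0.270 CPM with bFGF, 0.738 ± 0.142 in OIM and 0.460 ± 0.273 in control. CDH7, a cadherin of cell adhesion, averaged 2.50 ± 0.401 CPM with bFGF, 0.395 ± 0.202 in OIM and 0.491 ± 0.163 in control. For all 3 the control and OIM libraries overlapped. TMEM74, a membrane protein of lysosomes, averaged 2.72 ± 0.415 CPM with bFGF, 0.761 ± 0.209 in OIM and 0.776 ± 0.110 in control.

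EVI2A and EVI2B lie 5.31 kb apart on the plus strand of chromosome 12, within NF1, which runs on the other strand and shares no exon base with either. EVI2A, a transmembrane protein named for a site of viral integration, was read at 0.404, 0.907 and 0.435 CPM in control, 0.572, 0.399 and 0.245 CPM in OIM and 4.96, 5.40 and 5.5 CPM in bFGF. EVI2B, a membrane protein of leukocytes, was read at 0.605, 0.445 and 0.536 CPM in control, 0.258, 0.399 and 0.438 CPM in OIM and 2.50, 2.17 and 2.04 CPM in bFGF, and its OIM libraries all lay below its control libraries. NF1, the neurofibromin gene around them, was at 392 ± 7.90 CPM with bFGF and 398 ± 11.5 in OIM, a difference of -0.02 ± 0.03 on the log2 scale that was not called and became 0.20 with library totals. The bFGF means of EVI2A and EVI2B were 13.0 and 6.13 times their OIM means. Of the 11 macrophage and monocyte markers tested, 0 were higher with bFGF, 2 were lower (18.2%) and 9 were not called. Of all genes tested, 17.7% were higher and 18.4% lower. In the whole list of 15, 11 were below 1 CPM in every library. Which cells expressed EVI2B was not tested.

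SLC4A8, an exchanger of sodium, bicarbonate and chloride, was read at 0.220, 0.0990 and 0.234 CPM in control, 0.498, 0.353 and 0.508 CPM in OIM and 2.52, 2.36 and 2.50 CPM in bFGF. It was the member with the lowest level per length, 0.244 CPM per kilobase with bFGF, above 13.3% of the genes tested, and the one whose OIM and control libraries differed most clearly.

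Enzymes, kinases and other proteins inside the cell completed the set. PADI1, which converts arginine to citrulline in proteins, was read at 0.0183, 0.0165 and 0.100 CPM in control, 0.0184, 0.0154 and 0.0175 CPM in OIM and 2.18, 2.35 and 3.04 CPM in bFGF. The OIM libraries held 1 count each, 3 in all, so the ratio of bFGF to OIM in pooled counts, 148, rests on few counts. It describes values that the rule selected. GZMA, granzyme A, a protease of cytotoxic lymphocytes, was read at 0.239, 0.346 and 0.251 CPM in control, 0.406, 0.338 and 0.210 CPM in OIM and 3.84, 4.46 and 3.77 CPM in bFGF, although CD3D, CD3E, CD3G, CD2, MS4A1 and CD79B, which define T and B cells, were at 0 counts in all 9 libraries. The annotation holds 2 copies of GZMA, so no level per length is given. B3GAT2, a glucuronyltransferase that builds the HNK-1 carbohydrate, was read at 0.477, 0.297 and 0.184 CPM in control, 0.590, 0.768 and 0.158 CPM in OIM and 4.68, 3.40 and 3.81 CPM in bFGF. Its OIM libraries spanned all its control libraries. RGS5, which ends G protein signalling and is known from pericytes, was read at 0.697, 0.313 and 0.519 CPM in control, 0.295, 0.353 and 0.350 CPM in OIM and 3.82, 2.44 and 3.83 CPM in bFGF. The bFGF mean of RGS5 was 10.1 times the OIM mean. Of the other 10 smooth muscle and pericyte markers tested, 9 were lower with bFGF and 0 were higher, beside 18.4% and 17.7% of all genes. The remaining marker, CSPG4, was at 345 ± 1.72 CPM with bFGF and 248 ± 6.38 in OIM. Its log2 fold change of 0.48 ± 0.04 (edgeR adjusted p = 1.17e-09) fell just short of the fold limit. MAP3K15, a stress kinase also known as ASK3, was read at 0.569, 0.297 and 0.285 CPM in control, 0.683, 0.476 and 0.385 CPM in OIM and 2.61, 2.86 and 4.14 CPM in bFGF. Replicate 3 was the highest of its bFGF libraries. ABLIM3, an actin-binding LIM protein, was read at 0.257, 0.280 and 0.603 CPM in control, 0.646, 0.491 and 0.455 CPM in OIM and 6.71, 6.63 and 6.48 CPM in bFGF, with a CV of 1.76% over the bFGF libraries. CCDC160, a coiled-coil protein, was read at 0.477, 0.940 and 0.820 CPM in control, 0.701, 0.737 and 0.245 CPM in OIM and 5.39, 5.42 and 6.46 CPM in bFGF, and its highest control library came near the limit of the rule. DDIT4L, an inhibitor of mTOR signalling, averaged 2.65 ± 0.347 CPM with bFGF, 0.128 ± 0.0814 in OIM and 0.191 ± 0.0795 in control, with a bFGF mean 20.6 times the OIM mean. GMPR, which converts GMP to IMP, averaged 2.44 ± 0.400 CPM with bFGF, 0.385 ± 0.113 in OIM and 0.426 ± 0.147 in control. SH2D7, an SH2-domain protein, averaged 2.37 ± 0.332 CPM with bFGF, 0.842 ± 0.0962 in OIM and 0.632 ± 0.170 in control, the smallest fold over OIM of any member (2.82 times).

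The 8 least abundant members apart from PADI1 and SLC4A8, namely TMEM74, DDIT4L, SSTR1, CDH7, ROBO3, GMPR, SH2D7 and EVI2B, ranged from 2.01 to 3.19 CPM over their bFGF libraries. Over the control libraries they ranged from 0.117 to 0.972 CPM and over the OIM libraries from 0.0350 to 0.928. Their bFGF means were 2.82 to 20.6 times the OIM means.

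As a set, the members were low genes even with bFGF. AREG, HMGA2 and EREG held 32.4% of the CPM of all members, whose median was 3.50 CPM. Per kilobase of exon, 3 of the 34 members with a single locus (AREG, HMGA2 and LOC110261354) were above the median of all genes tested, and the median member was at 1.07 CPM per kilobase, above 24.8% of genes. The median CV over the bFGF libraries was 12.3% for members and 5.21% for all genes tested. Members lay on 13 chromosomes, with at most 4 on one.

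Near the upper limit of the rule, the members SH2D7, GMPR, EVI2B, ROBO3 and PADI1 had 2.01 to 2.18 CPM in their lowest bFGF library. The genes just outside it were MYO16, PPP1R16B, LRRC31, CEP72 and UCP2, with 1.92 to 1.999 CPM. Near the lower limit, LOC110261354, SSTR1, LDB2, CCDC160 and SH2D7 had 0.928 to 0.998 CPM in their highest library without bFGF, and LOC110261668, SST, AIPL1, ADGRL4 and LOC100513296 were just outside with 1.02 to 1.09 CPM. SST, which encodes the peptide hormone somatostatin, was excluded by OIM replicate 2 alone, at 1.04 CPM. It was read at 0.312, 0.511 and 0.352 CPM in control, 0.553, 1.04 and 0.508 in OIM and 34.6, 34.7 and 44.6 with bFGF, which is above AREG, and its receptor SSTR1 was a member.

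Control and OIM were then compared in the fit over all genes. The rule held both groups below 1 CPM, so it used these levels and limited how far they could differ, although it did not use the direction between them. The counts of members here therefore describe genes capped in this way, and the 1664 genes at the levels of the members are the nearer background. SLC4A8 was the single member called (1 of 35, against 2.35% of all 13662 genes, 1.49% higher in OIM and 0.864% lower, and against 1.5% of the 1664 genes at the levels of the members). It was higher in OIM, with a log2 fold change of 1.29 ± 0.41 (SE, edgeR adjusted p = 0.0407) and all 3 OIM libraries above all 3 control libraries. The call was lost in 7 of 9 fits that left out 1 library, and over 15 alternatives the adjusted p ranged from 0.0129 to 0.141. NXPH2 had the next clearest difference, 1.0 ± 0.38 (edgeR adjusted p = 0.0903), also with no overlap. PADI1 had the largest log2 fold change in size, -1.32 ± 0.97, on a few counts (edgeR adjusted p = 0.429). In total 2 members had an unadjusted p under 0.05, 20 differences were above 0 and 15 below, and the median was 0.11, beside -0.0019 for all genes. The OIM and control libraries did not overlap for 5 of 35 members (NXPH2, THSD7A, SLC4A8, SH2D7 and EVI2B), where 28.8% of all genes tested did not. That share was not taken over the 1664 genes at the levels of the members, so the 2 shares are not compared at like levels. Among the secreted and membrane ligands beside NXPH2, the differences were 0.56 ± 0.37 for NDP, 0.32 ± 0.32 for AREG, 0.27 ± 0.38 for TNFSF9, 0.14 ± 0.41 for EREG, 0.14 ± 0.82 for FGF19 and 0.11 ± 0.50 for CBLN4, none of them called, and HMGA2 had 0.05 ± 0.22. At these low counts, differences of the size of these errors were not detectable.

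**Figure D3:**
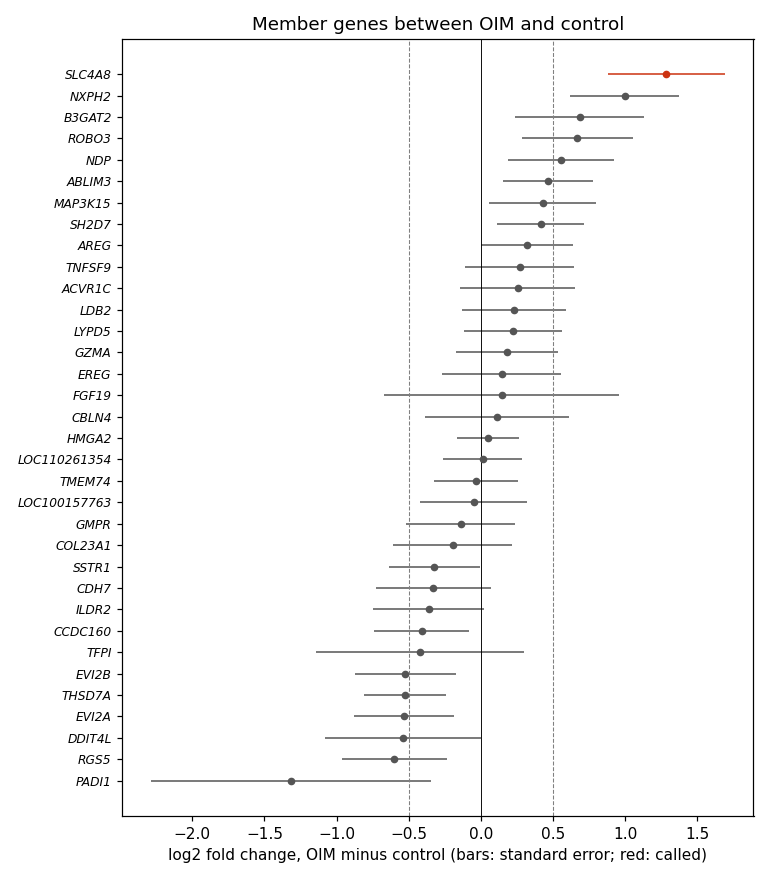
Log2 fold change of 34 members between OIM and control (x axis), with the standard error as bars; broken lines mark the fold limit of 0.5 in each direction and red marks a call. SLC4A8 at 1.29 is the only red point, and PADI1 at -1.32 has the widest bar.

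OIM replicate 2 was the highest of the 6 libraries without bFGF for 10 of the 35 members, against 19.5% of all genes tested, among them EREG, CBLN4, NDP and LDB2. Its members took 17.4 CPM together, more than in any other library without bFGF (12.7 to 15.2). Whether this library bears on the member levels otherwise was not tested.

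Genes that are known to follow FGF and ERK signalling were compared as a list of 21 non-members. With bFGF, 14 of them were higher than in OIM and 2 were lower, with a median log2 fold change of 1.48, beside 17.7% and 18.4% of all genes. The feedback inhibitors SPRY1 (1.79), SPRY2 (1.60), SPRY4 (1.33) and SPRED1 (1.07) were higher. The ERK phosphatases DUSP4 (1.95), DUSP5 (2.65) and DUSP6 (1.95) were higher as well. DUSP6 was at 10.6, 13.8 and 9.89 CPM in OIM and 45.5, 47.2 and 40.4 with bFGF. The ETS factors ETV4 (2.02) and ETV5 (2.72), the AP-1 protein FOSL1 (1.74), EGR1 (1.48) and cyclin D1, CCND1 (1.51), were also higher. EPHA4, an ephrin receptor, was lower (-1.63 ± 0.07), and PHLDA1 was lower by little (-0.53), a call lost with library totals (-0.31), without OIM replicate 2 (-0.47) or without bFGF replicate 3 (-0.48). FOS, MYC, ETV1, SPRED2 and SPRED3 were not called. None of the 21 was a member, since each was above 1 CPM in a library without bFGF, and the scarcest, ETV5, was at 1.62 ± 0.630 CPM in OIM. Of 6 genes listed as FGF receptors, the co-receptor KLB among them, 0 were higher, beside 17.7% of all genes. FGFR2 (16.2 ± 0.339 against 129 ± 9.71 CPM, log2 fold change -3.00 ± 0.06, edgeR adjusted p = 8.22e-19) and FGFRL1 (-1.83) were lower, beside 18.4% of all genes. FGFR1, the most abundant, was at 226 ± 2.41 CPM with bFGF and 192 ± 5.52 in OIM and was not called.

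**Figure D4:**
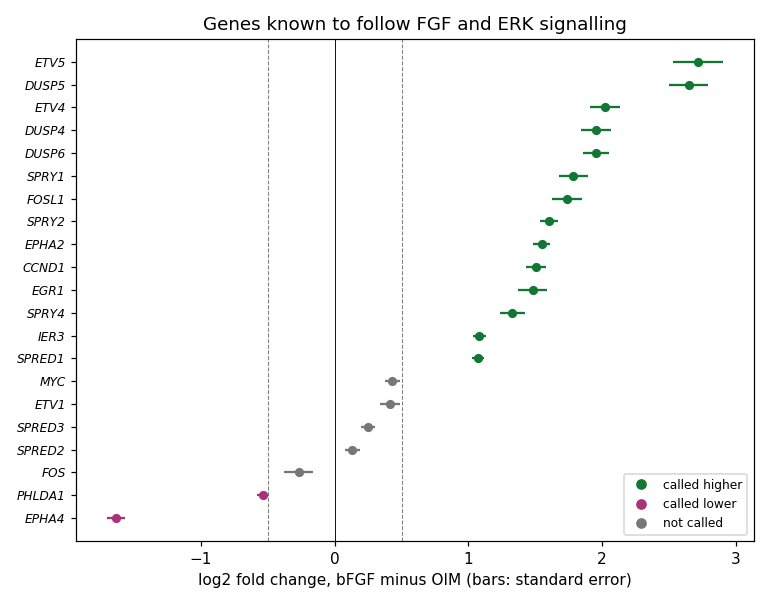
Log2 fold change between bFGF and OIM (x axis, bars are standard errors) of 21 genes known to follow FGF and ERK signalling, with broken lines at the fold limit of 0.5. The 14 genes called higher lie above the limit, led by ETV5 at 2.72 and DUSP5 at 2.65, and EPHA4 at -1.63 lies farthest below.

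Genes that share the root of a member's symbol were taken as relatives, and 661 of them were tested, from 23 roots. Of these, 102 were higher with bFGF than in OIM (15.4%, against 17.7% of all genes) and 151 were lower (18.4% of all genes were). With library totals in place of TMM factors, which moved the median log2 fold change of all genes by 0.22, the split was 165 higher and 110 lower. The shares of all genes called with library totals are not given here, so this split is not set against all genes. The roots CCDC, COL, MAP, SLC and TMEM, which name loose classes, held 593 of them. Among the 68 relatives of the other 18 roots, 16 were higher (23.5%, against 17.7% of all genes). More of them, 22, were lower, against 18.4% of all genes. Among the cadherins, 5 of 9 were higher, among them CDH6, which was at 0.0233 CPM in OIM and 1.24 ± 0.349 with bFGF (log2 fold change 5.63 ± 0.64, edgeR adjusted p = 1.46e-07). CDH2, N-cadherin, was higher by 0.66, CDH18 by 1.93 and CDH5 by 0.51, of which the last was just past the fold limit and lost its call without OIM replicate 3 or bFGF replicate 3 (0.45 and 0.44), and CDH4 was lower (-1.92). Among the FGFs, FGF1 (13.1 ± 0.201 against 1.37 ± 0.318 CPM, 3.24 ± 0.21) and FGF13 (2.17) were higher. FGF2, the gene of the added factor itself, was lower (215 ± 11.7 against 353 ± 8.15 CPM, -0.72 ± 0.04; -0.50 and just short of the fold limit with library totals), as were FGF9 (-1.31), FGF11 (-2.02) and FGF12 (-1.97).

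Relatives of the less abundant members went both ways. PADI3, 2.29 kb from PADI1 on the same strand, was higher (1.33 ± 0.34, edgeR adjusted p = 0.00199), and PADI2 was called higher at 0.240 CPM with bFGF, a call lost in 4 of the fits that left out 1 library (1.78 to 1.92, edgeR adjusted p = 0.0779 to 0.106). ROBO2 was higher (2.86 ± 0.39), whereas ROBO1, the most abundant of the ROBO genes, was lower (-0.70; -0.48 and no longer called with library totals). RGS17 (1.80) and RGS20 (1.75) were higher, and RGS3 (-2.07) was lower. TNFSF11, which encodes RANKL, the ligand that drives osteoclast formation, was listed at 0 counts in all 6 libraries without bFGF and at 0.522, 0.269 and 0.366 CPM with it, below the limit of the rule. TNFRSF11B, its decoy receptor osteoprotegerin, was at 0.539 ± 0.252 CPM with bFGF and 7.28 ± 1.81 in OIM (-3.75 ± 0.25, edgeR adjusted p = 4.94e-11). TNFSF10, known as TRAIL, was lower (2.14 ± 0.571 against 52.1 ± 8.32 CPM, -4.60 ± 0.13), as was TNFSF18 (-4.07). ABLIM1 (-2.67), ACVR1B (-1.42), DDIT4 (-1.40), DDIT3 (-0.99) and NXPH4 (-1.04) were lower too, so that ABLIM3, ACVR1C, DDIT4L and NXPH2 each had a relative that was lower with bFGF.

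**Figure D5:**
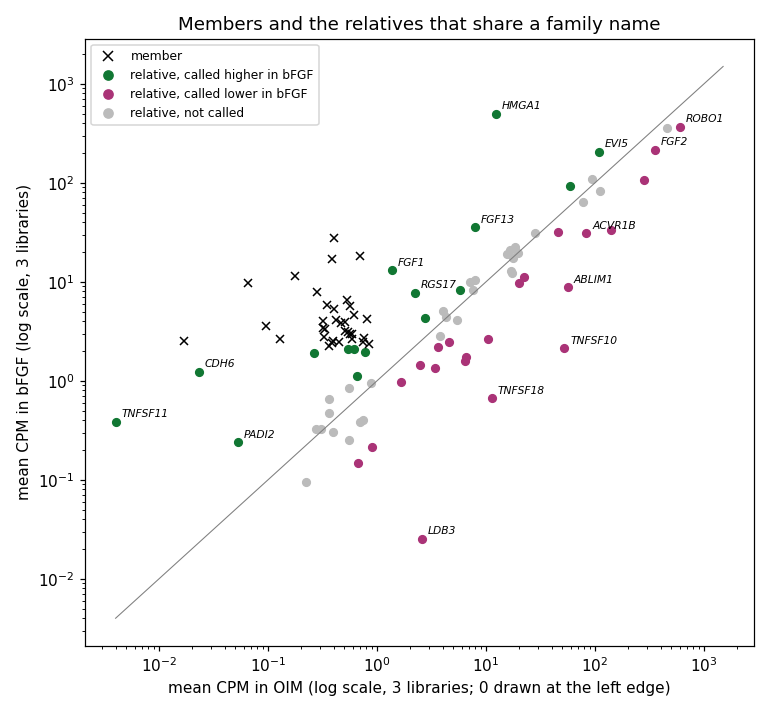
Mean CPM in OIM (x axis) against mean CPM with bFGF (y axis), both on log scales, for 34 members (crosses) and the 68 relatives from the 18 roots with at most 25 relatives (dots, coloured by call); the line marks equal levels, and TNFSF11, at 0 in OIM, is drawn at the left edge. HMGA1 and CDH6, at 5.32 and 5.63 on the log2 scale, lie far above the line, and TNFSF10 and TNFSF18, at -4.60 and -4.07, far below it.

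The enzymes that sulfate heparan sulfate, the co-receptor of FGFs, were measured for 7 genes. Of these, 3 were higher with bFGF and 2 were lower, beside 17.7% and 18.4% of all genes. HS3ST1 had a pattern close to that of the members, at 0.00584 CPM in OIM and 1.05 ± 0.0793 with bFGF, and stayed under 2 CPM. HS6ST1 was higher (0.83) and NDST1 lower (-0.67), each at a far higher level.

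The genes around the members were also compared. Within 100 kb, 75 tested non-members lay near 26 of the 35 members, and 33 of them were higher with bFGF than in OIM (44%, against 17.7% of all genes) and 4 were lower. All 12 neighbours of LOC100157763 were higher, and of the other 63, 21 were higher (33.3%) and 4 lower. ESM1, an endothelial proteoglycan known to follow VEGF signals, lies 68.6 kb from GZMA and was at 338 ± 5.13 CPM with bFGF and 16.4 ± 7.28 in OIM (4.35 ± 0.16, edgeR adjusted p = 8.08e-15). CYTIP, which binds cytohesins, lies 31.3 kb from ACVR1C and was at 74.0 ± 1.07 against 9.06 ± 2.83 CPM (3.02 ± 0.13). CCND1 lies 34.3 kb from FGF19, KCNN4, a potassium channel, 14.2 kb from LYPD5 (1.9), and CALCRL, a receptor of adrenomedullin, 12.6 kb from TFPI (1.19). AFAP1L1 near ABLIM3 (1.29), SH3KBP1 near MAP3K15 (1.27) and CLEC14A near SSTR1 (0.93) were higher as well, and so was CD70 near TNFSF9 (2.27), at 0.254 CPM, a call that was lost in 3 of the fits that left out 1 library and with DESeq2 (2.31, DESeq2 adjusted p = 0.0583). The 4 called lower were MTHFD2L (-1.11) and EPGN (-2.31) near EREG, IL17B near ABLIM3 (-2.45) and ZNF404 near LYPD5 (-0.58). Neighbours were not independent of each other, and whether their share differs from that of other expressed genes was not tested.

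Reads at several members could not be assigned without doubt. The sources used here do not say whether counting used strand. LOC110261354, annotated as basic proline-rich protein-like, was read at 0.679, 0.841 and 0.904 CPM in control, 0.886, 0.998 and 0.560 CPM in OIM and 3.60, 5.19 and 3.91 CPM in bFGF. It shares 127 of its 393 exon bases with TGFB1 on the same strand, and TGFB1 was itself higher with bFGF (70.0 ± 1.42 against 14.5 ± 2.49 CPM, 2.27 ± 0.09, edgeR adjusted p = 1.09e-14), so its 5.19-fold difference cannot be told apart from reads of TGFB1. B3GAT2 shares 227 exon bases with SMAP1, MAP3K15 shares 784 with PDHA1 and SH2D7 shares 405 with CIB2, each on opposite strands. TFPI and THSD7A share 71 and 78 exon bases with non-coding genes on the other strand. SMAP1, PDHA1 and CIB2 had log2 fold changes of -0.04, 0.02 and 0.10, all within the fold limit, and SMAP1 became 0.18 with library totals and PDHA1 -0.00938 without bFGF replicate 2. Of the 12 tested non-coding transcripts within 50 kb of a member, 1 was higher with bFGF, at LOC110261569, 42.6 kb from SSTR1 (0.58 ± 0.12, edgeR adjusted p = 0.0188), and 1 was lower, the HMGA2 antisense transcript.

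The labelled cell type was checked by marker lists. Valve interstitial and fibroblast markers were high in all libraries, with a summed level of 71536 to 80069 CPM in control and OIM and 40735 to 41254 with bFGF. Of the 11 endothelial markers tested, 8 were higher with bFGF and 0 were lower, beside 17.7% and 18.4% of all genes. The sum of the endothelial markers was 74.5 to 76.6 CPM in control, 88.9 to 90.7 in OIM and 172 to 181 with bFGF. Most of this sum was ERG, an ETS factor (137 ± 5.05 against 66.8 ± 0.873 CPM, 1.04 ± 0.04). PECAM1 was higher (20.7 ± 1.07 against 11.8 ± 1.06 CPM, 0.81), as were KDR (2.73) and EMCN (1.55), at 1.17 and 2.95 CPM with bFGF. CLDN5 (2.50), TEK (1.04), SOX17 (1.04) and CDH5 (0.51, just past the fold limit) were higher too. VWF was at 0.228 CPM with bFGF and 0.303 in OIM and was not called (-0.43, and 0.50 without OIM replicate 2). ESAM and TIE1 were not called either. Macrophage markers summed to 11.4 to 13.1 CPM with bFGF and 18.6 to 22.4 in control, with 11 of 15 below 1 CPM in every library. Epithelial markers summed to 0.336 to 1.25 CPM over all libraries. Smooth muscle and pericyte markers summed to 503 to 514 CPM with bFGF and 1011 to 1462 in the others. The part of endothelial or other cells in the member levels was not tested.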

How the data were processed

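RNA from 9 PVIC samples, 3 per group, was sequenced. The authors deposited a single table of count values per gene, per non-coding transcript and per circular RNA, not normalized, in which gene values are whole and 44.6% of the non-coding transcript values are estimated counts that are not whole. The submitters' processing notes name Trimmomatic, HISAT2, StringTie and Sscrofa11.1, whereas the methods of the study name other trimming and alignment tools and another library kit. The counting program and its use of strand were not given in the sources used here. The 19 unnamed columns of the table were not used, and 25 gene symbols had been altered to dates.

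Gene rows were filtered with filterByExpr over the 3 groups and fitted with edgeR 4.0.16 (R 4.3.3) by the quasi-likelihood test with TMM factors and Benjamini-Hochberg adjustment over 13662 genes. The 9888 non-coding transcripts were fitted apart, after rounding of their estimated counts. A call needed an adjusted p of at most 0.05 and a log2 fold change of at least 0.5 in size. Values are TMM-scaled CPM, and levels per kilobase used the exon length in RefSeq Sscrofa11.1, in which all 35 members were found. Values per library are given for the 25 members highest with bFGF, for those highest and lowest per kilobase, for those called or differing most between OIM and control and for members of a list. Relatives were named when most abundant in their family or called. The members and all lists were chosen with earlier results of these data known. The code was tested on simulated data. Alternatives were library totals, DESeq2 1.42.0, a replicate block, other limits and leaving out each library. Values of 1 member and of 1 other listed gene are not reported here, though both are in the counts.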

Additional observations from a re-analysis of the deposited data

How the results depend on the processing

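Other limits of the rule gave 10 members (below 0.5 CPM without bFGF), 12 (at least 4 CPM with bFGF) or 77 (limits on group means), and scaling by library totals gave 48, all 35 among them. Members called between OIM and control were 0 in a fit of the control and OIM libraries only, 2 with DESeq2 (NXPH2 in addition, adjusted p = 0.0496) and 2 by unadjusted p. Leaving out 1 library at a time gave 0 to 1, with the call kept only without control replicate 3 or OIM replicate 2. Relatives called higher were 165 with library totals and 184 without a fold limit, and those called lower were 240 without a fold limit. The FGF and ERK list had 1 gene lower with library totals and 1 to 2 when single libraries were left out. Neighbours called higher were 21 without those of LOC100157763, a choice made after seeing the data, as were all alternatives for neighbours and endothelial markers.

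The sign changed with library totals for EGFR (0.058), NF1 (0.20) and SMAP1 (0.18). When single libraries were left out, PDHA1 ranged from -0.00938 to 0.053 and VWF from -0.83 to 0.50. None of these genes was called. The cause of these changes was not tested. Of 1123 values of 86 single genes under the alternatives, 1090 kept their direction and side of the threshold.

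Samples with the same replicate number did not deviate together (r from -0.0595 to 0.0526 over 9 pairs), so no pairing by number was seen. These values cannot tell whether samples with one number shared a culture or animal. With the replicate number as a block, 1 member was called between OIM and control, and with bFGF 99 relatives were higher and 148 lower, 14 genes of the FGF and ERK list were higher and 2 lower, and 33 neighbours and 8 endothelial markers were higher, with no call of a named gene changed.

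Member levels without bFGF rested on at most 65 counts per library, so that small differences between OIM and control were not detectable at this depth.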
